A study of Bos taurus with 8 samples.

Results

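Bta-miR-122 was chosen by name, as the entry so called in the tables of all 8 rumen fluid libraries. It is 1 of 565 entries listed. Of these, 377 had 10 or more reads in some library and were kept, 268 of them bovine, bta-miR-122 included. It was picked with its values in these libraries already known, so its levels are described without a test. The libraries came from 4 adult, non-lactating Holstein cows with a rumen cannula. Rumen fluid of each cow was first taken from the ventral sac on a forage diet with 0% concentrate. It was taken again on the first day on a high-grain (HG) diet with 65% concentrate, reached in steps over 1 week. Both samplings were 4 h after feeding. Small RNA of each sample gave 1 library, so there were 4 forage and 4 HG libraries, and libraries of both diets with the same number in the labels were taken as 1 cow.

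MiR-122 is the dominant miRNA of hepatocytes, in which it maintains cholesterol and lipid metabolism and is processed from a hairpin transcribed from its own gene. It is made at very low levels in most other tissues, and hepatocytes release part of it into blood plasma, where it serves as a marker of liver injury. Other miRNAs are restricted in a like way to erythroid cells, striated muscle, neurons or epithelia, and lists of such miRNAs give the scale on which bta-miR-122 is placed here. Rumen fluid is a bulk sample, in which fewer cells of a type and less RNA per cell cannot be told apart.

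The libraries held 300116 to 522804 miRNA reads, 6.67% to 29.3% of all their reads. HG replicate 2 stood apart from the other 7 libraries. Libraries were compared pairwise by chi-square, divided by its degrees of freedom, on the read proportions of 78 bovine entries without shared reads. The value was 23.7 to 28.7 in the 7 pairs that included it and 0.993 to 2.40 in the 21 other pairs. Proportions agreed within sampling noise in 7 of these 21 pairs: 3 of 6 forage pairs, 1 of 3 HG pairs and 3 of 12 pairs between the diets. The libraries were kept as separate samples. Their total reads and miRNA percentages differed, which alone does not show that their RNA was separate. Every SD and n given here counts each library as a separate sample, and whether the 7 like libraries are independent of each other was not tested. Results that rest on HG replicate 2 are given with and without it.

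In the annotation of the bovine genome UMD3.1 used for the tables, bta-miR-122 lies on chromosome 24 at chr24:58095656-58095677, on the plus strand, as a 22-base mature miRNA of the hairpin bta-mir-122. RefSeq's table for ARS-UCD2.0, a later assembly from which no coordinates were taken, names its gene MIR122. It overlaps no other gene. The nearest protein-coding genes are NEDD4L, which encodes a ubiquitin ligase, and ALPK2, which encodes a kinase of the alpha family. None of the reads of bta-miR-122 were shared with another entry in any of the 8 libraries, so its count did not depend on how shared reads were divided.

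Bta-miR-122 had reads in every library, 7394 in all. On the forage diet the counts were 1166, 1105, 1105 and 725 reads in replicates 1 to 4. On the HG diet they were 799, 525, 987 and 982 reads. As a share of each library's miRNA reads, the forage libraries held 2360, 2114, 2423 and 2185 RPM, that is, reads of bta-miR-122 in 1000000 miRNA reads. The HG libraries held 2662, 1562, 2526 and 2530 RPM. The lowest library was thus HG replicate 2, with a 95% Wilson interval of 1434 to 1701 RPM that lay below the intervals of all other libraries, of which the lowest began at 1993 RPM. The interval takes in counting error alone, and PCR copies make reads less independent than molecules.

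**Figure D1:**
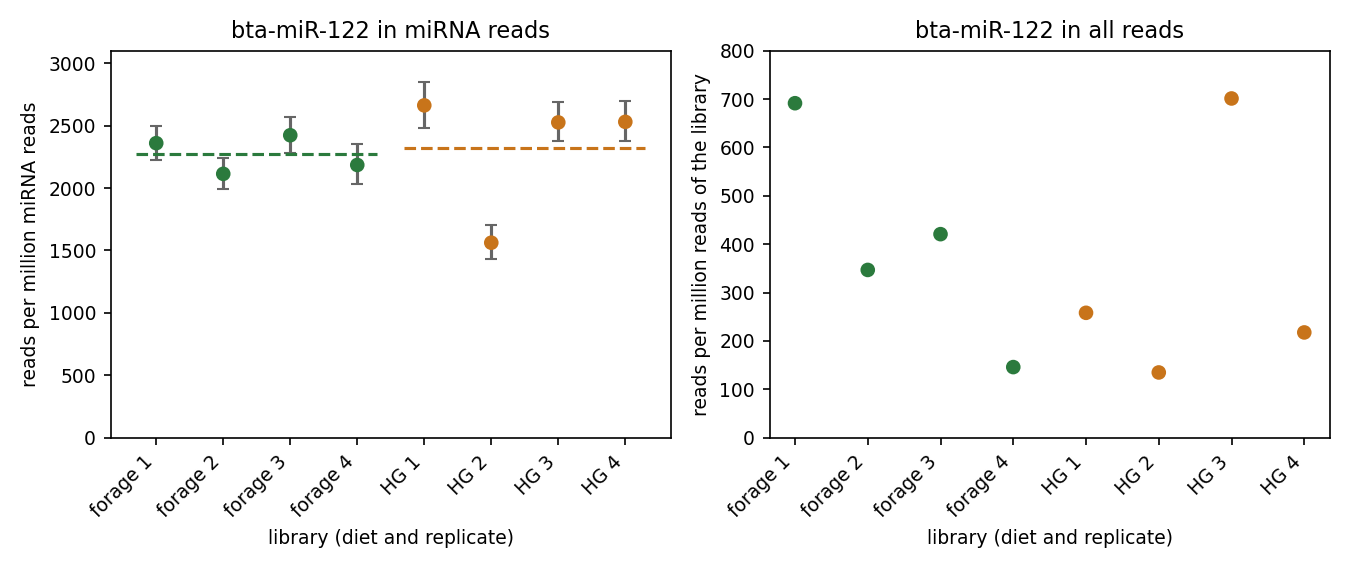
Reads of bta-miR-122 in each library, in RPM of miRNA reads (left, points with 95% Wilson intervals, dashed lines the mean of each diet) and in RPM of all reads of the library (right), for 4 forage and 4 HG libraries. On the left 7 libraries lie between 2114 and 2662 RPM and HG replicate 2 lies at 1562 RPM, whereas on the right the values run from 135 to 701 RPM and both diets cover most of that range.

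The mean was 2270 ± 145 RPM (SD, n = 4) on the forage diet and 2320 ± 509 RPM (SD, n = 4) on the HG diet. In percent of miRNA reads this was 0.227% ± 0.0145 and 0.232% ± 0.0509 (SD, n = 4). Of the 377 entries, 5 (1.33%) were higher on the HG diet without overlap between all 4 and 4 libraries and 10 (2.65%) were lower. Bta-miR-122 was not among them. Its ranges overlapped because HG replicate 2 lay below all forage libraries, while the other HG libraries lay above all of them. Between libraries of the same number, the HG library exceeded the forage library by 303, 103 and 346 RPM in replicates 1, 3 and 4. In replicate 2 it fell by 552 RPM. Bta-miR-122 was therefore higher on the HG diet in 3 of 4 pairs.

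Without HG replicate 2, the HG mean was 2573 ± 77.6 RPM (SD, n = 3), and the HG libraries no longer overlapped with the forage libraries. Of the 377 entries, 11 (2.92%) were higher on the HG diet without overlap in the same 7 libraries, and 12 (3.18%) were lower. Bta-miR-122 was one of the 11. In CPM after TMM normalization, a scaling of read totals between libraries, it was again higher without overlap in the 7 libraries, as were 3.18% of the entries, and overlapped over all 8, where 1.86% were higher and 2.65% lower without overlap. In the authors' normalized values it was likewise higher in the 7 libraries, with 2.12% of the entries higher and 3.45% lower, and overlapped over all 8, with 0.796% higher and 2.92% lower. The separation was known when the miRNA was chosen and carries no test. In the authors' values the forage libraries lay between 838 and 955, the HG libraries other than replicate 2 between 979 and 1042, and HG replicate 2 at 698.

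Relative to all reads of the library, bta-miR-122 varied far more, since the part of a library taken by miRNA differed. Forage libraries held 691, 347, 421 and 146 RPM of library reads. HG libraries held 258, 135, 701 and 217 RPM of library reads. The highest value was 5.21 times the lowest, against 1.70 times in RPM of miRNA reads. Both diets included libraries near the top and near the bottom of this range, so the level per library read did not separate them.

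The spread of bta-miR-122 was compared with counting error as the variance between libraries over the variance that read counting alone would give, for the 198 bovine entries with at least 10 reads in every library. In the 7 libraries without HG replicate 2 this ratio was 6.42 for bta-miR-122, the rank of 11 from the top, with a median of 1.38 over the entries. Within the forage libraries the ratio was 4.37 (rank 25), and within the 3 remaining HG libraries it was 0.762 (rank 130). These ratios of 4 and 3 libraries are given as a description, and their difference was not tested. Over all 8 libraries the ratio was 18.3 (rank 30, median of entries 3.19).

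The reads of bta-miR-122 fell on 20, 19, 22 and 21 distinct sequences in the forage libraries and on 17, 15, 22 and 20 in the HG libraries. Such sequences differ from the mature miRNA by trimmed or added ends or by mismatches. Summed over the libraries there were 156, and the 20 bovine entries with the nearest total reads had 117 to 352 (median 169.5), of which 7 had fewer than bta-miR-122. HG replicate 2, with the fewest reads, also had the fewest distinct sequences.

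By total reads bta-miR-122 ranked 59 among the 399 bovine entries listed. It ranked 59 in each forage library, and 56, 74, 58 and 57 in the HG libraries. Just above it stood bta-miR-148a with 8198 reads and bta-let-7d, a member of the let-7 family, with 7982. Just below it stood bta-miR-200b, an epithelial miRNA, with 6681 reads and bta-miR-15a, of the miR-15 and miR-16 family, with 6523. Bta-miR-148a and bta-let-7d each exceeded bta-miR-122 in 6 of 8 libraries. Bta-miR-200b and bta-miR-15a each exceeded it in 1 library, HG replicate 2. On the forage diet bta-miR-148a held 2535 ± 75.1 RPM and bta-miR-200b 2109 ± 70.5 RPM (SD, n = 4), and the ranges of both overlapped with that of bta-miR-122 over the 7 other libraries. The same held for bta-let-7d and bta-miR-15a, so by undivided reads none of these neighbours was set apart from bta-miR-122 by its range in the 7 libraries. Bta-miR-148a, bta-let-7d and bta-miR-15a share reads with other entries and kept 4098, 3957 and 3251 reads after dividing, below the 7394 of bta-miR-122, whereas bta-miR-200b kept all 6681.

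The other miRNAs on the liver list are less restricted to the liver. Apart from bta-miR-122 the list holds 7 bovine miRNAs, of which bta-miR-802 was not listed in any of the tables analysed here. Bta-miR-148a, abundant in liver and in several secretory tissues, was the most abundant of the rest. Bta-miR-192 and bta-miR-194, which are transcribed together and mark liver, intestine and kidney, held 1262 ± 51.0 and 862 ± 78.9 RPM on the forage diet (SD, n = 4). On the HG diet they held 1212 ± 116 and 912 ± 38.8 RPM (SD, n = 4), and without HG replicate 2 1265 ± 56.9 and 930 ± 14.8 RPM (SD, n = 3). Bta-miR-215, a relative of bta-miR-192, held 537 ± 91.9 and 525 ± 122 RPM on the forage and the HG diet. Bta-miR-193b, found in liver and adipose tissue, held 226 ± 31.0 and 243 ± 49.3 RPM. Bta-miR-885, a miRNA enriched in liver, held 42.7 ± 17.7 and 43.5 ± 17.3 RPM (SD, n = 4 for each). Without HG replicate 2 the HG levels of bta-miR-215, bta-miR-193b and bta-miR-885 were 574 ± 88.5, 225 ± 43.1 and 52.0 ± 2.97 RPM (SD, n = 3). The summed level of the list was 7593 to 7858 RPM in the forage libraries and 6875 to 8433 RPM in the HG libraries, with the lowest sum in HG replicate 2. Of its 7 kept members 4 shared reads with other entries, among them bta-miR-148a, of which 50.0% of the reads were left after dividing.

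For every 100 reads of bta-miR-192 there were 166 to 189 reads of bta-miR-122 in the forage libraries, 199 to 210 in the HG libraries other than replicate 2, and 148 in HG replicate 2. Against bta-miR-194 the counts were 218 to 292, 268 to 286 and 182 per 100 reads. Against bta-miR-215 they were 386 to 525, 414 to 534 and 413. Against bta-miR-148a they were 82.5 to 99.9, 96.1 to 107 and 57.6. Bta-miR-122 thus fell short of bta-miR-148a, bta-miR-192 and bta-miR-194 in HG replicate 2 when set against the other libraries, but kept within their range when set against bta-miR-215. Against bta-miR-885, with 136 reads in all, HG replicate 2 held 8750 per 100 reads. This was within the 3625 to 12956 of the forage libraries and above the 4676 to 5195 of the other HG libraries. The value of 12956 is that of forage replicate 1 alone, and the other forage libraries held 3625 to 5023.

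Bta-miR-122 ranked 16 by total reads among the 45 listed members of 10 lists of tissue-restricted miRNAs, and 15 to 20 in single libraries, with 20 in HG replicate 2. Reads were not scaled by length, since each read stands for 1 mature miRNA of about the same length, and the different efficiency with which miRNAs enter a library was not corrected. Bta-miR-451, the erythroid miRNA, led the lists with 171126 ± 1561 RPM on the forage diet (SD, n = 4). Bta-miR-143 of smooth muscle held 59462 ± 998 RPM, bta-miR-142-5p of leukocytes 11292 ± 167 RPM and bta-miR-205 of stratified epithelium 9521 ± 154 RPM (SD, n = 4 for each). By undivided reads, bta-miR-1 of striated muscle held 6424 ± 385 RPM and bta-miR-9-5p of neurons 6025 ± 266 RPM on the forage diet. Both were higher than bta-miR-122 in all 8 libraries. Bta-miR-126-3p of endothelium held 4364 ± 116 RPM, also above bta-miR-122. Lower than bta-miR-122 were bta-miR-7, of neurons and endocrine cells, with 719 ± 75.5 RPM, and bta-miR-302b, of pluripotent cells, with 630 ± 42.7 RPM. The neuronal bta-miR-124a, named after its values were seen, held 983 ± 31.0 RPM. Of the miRNAs given here bta-miR-451, bta-miR-142-5p, bta-miR-1, bta-miR-9-5p, bta-miR-124a, bta-miR-7 and bta-miR-302b share reads with other entries, so the order depends on how these are counted. Bta-miR-142-5p, above bta-miR-205 by undivided reads, kept 17588 reads after dividing, below the 31972 of bta-miR-205. After dividing, bta-miR-1 kept 3396 of 20374 reads and bta-miR-9-5p 3769 of 18836, both fewer than the 7394 of bta-miR-122. Bta-miR-122 then exceeded every listed member for striated muscle, nervous tissue, pancreas and endocrine cells and embryonic stem cells, and also bta-miR-148a with 4098, the next of the liver list. It still came after bta-miR-451, bta-miR-143, bta-miR-205, bta-miR-142-5p and bta-miR-126-3p. Dividing also splits the reads of a miRNA that is listed under several entries. Bta-miR-1 and bta-miR-148a each had the same log2 fold change and standard error as a human entry, hsa-miR-1-3p and hsa-miR-148a-3p. Bta-miR-122 shared no reads, so the order after dividing depends in part on how many entries a miRNA has.

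**Figure D2:**
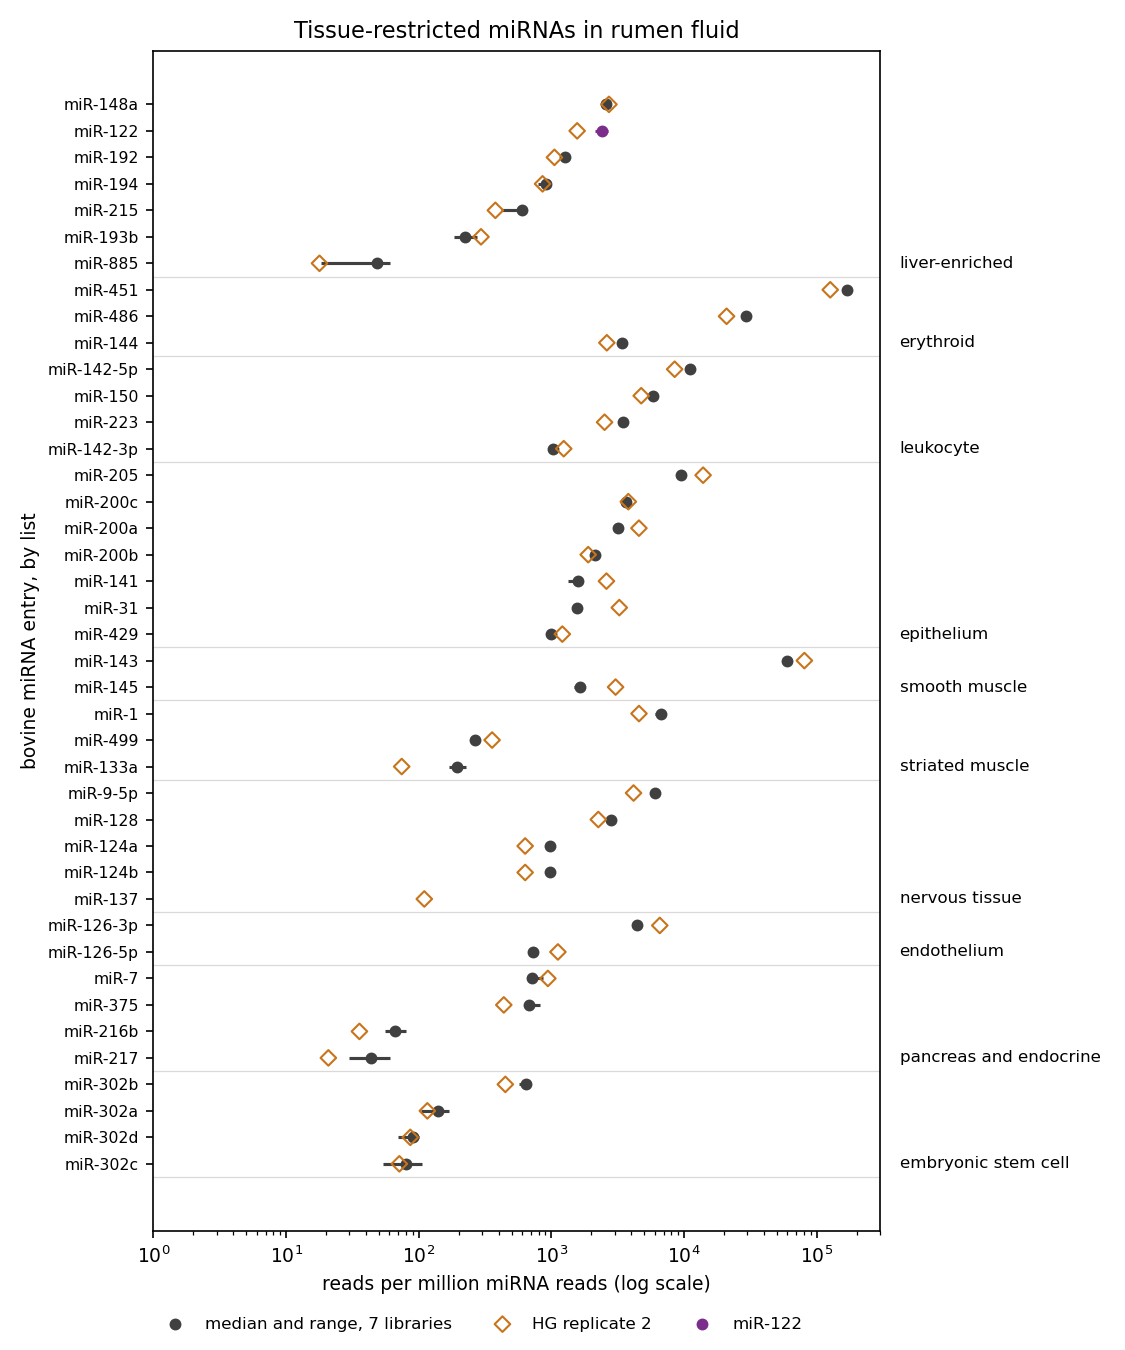
Level in RPM of miRNA reads (log scale) of the 41 members of the tissue-restricted lists that reached 10 reads in at least 1 library, as the median and range of 7 libraries, with HG replicate 2 as an open diamond (for bta-miR-137, whose median is 0, the diamond alone). Bta-miR-122 (violet) stands at a median of 2423 RPM, second in the liver list, between the erythroid bta-miR-451 at 169882 RPM and members under 100 RPM. The diamonds lie on 1 side of the medians in some lists and on both sides in others.

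The effect of the diet was tested over all 377 entries with edgeR's quasi-likelihood test, with cow and diet in the model. At a Benjamini-Hochberg adjusted p under 0.05, 0 entries (0%) differed between the diets. At an unadjusted p under 0.05 there were 9 (2.39%), and DESeq2 also called 0. Bta-miR-122 had a log2 fold change of 0.05 (standard error 0.09) on the HG diet, with a median of 0.03 over all entries. Its rank was 165 of 377 from the highest fold change down, so its diet difference lay in the middle of the entries. In the fit without replicate 2, its log2 fold change was 0.15 (standard error 0.04), the rank was 66 of 361 entries, and the median was 0.00. That fit called 2 entries, bta-miR-2285ak-5p and bta-miR-2285bh, both lower on the HG diet. Both had reads in forage replicate 1 alone, with the same number of reads. Without HG replicate 2 alone and without the cow in the model, an alternative chosen after seeing the data, the log2 fold change of bta-miR-122 was 0.17 (standard error 0.05).

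Of the 41 kept members of the tissue-restricted lists, 0 were called and 22 had a log2 fold change above 0, with a median of 0.00. Over all entries 210 of 377 were above 0, with a median of 0.03. In the liver list 6 of 7 members were above 0, with a median of 0.07 and 0 called. Bta-miR-194 changed by 0.13 (standard error 0.08) and bta-miR-192 by −0.01 (standard error 0.07). The 7 kept epithelial members were all above 0, with a median of 0.16, and the 3 erythroid members all below 0, with a median of −0.08. Without replicate 2, 2 of 7 epithelial members (median −0.02) and 1 of 3 erythroid members (median 0.00) were above 0, beside 187 of 361 entries, and in the liver list 5 of 7 (median 0.08). In that fit bta-miR-205 went from 0.16 to −0.02 and bta-miR-143 from 0.17 to 0.02, whereas bta-miR-122 went from 0.05 to 0.15. Its log2 fold change was then the third highest of 40 members, after bta-miR-885 at 0.31 (standard error 0.36) and bta-miR-194 at 0.17 (standard error 0.06). In the 7 libraries, bta-miR-122 was the single member of the 41 that was higher on the HG diet without overlap, beside the 2.92% of all entries given above, and bta-miR-451 the single one that was lower, beside 3.18% of all entries. Bta-miR-451 was also the single member lower without overlap over all 8 libraries, beside 2.65% of all entries. The members' counts of 1 of 41 were near these shares.

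**Figure D3:**
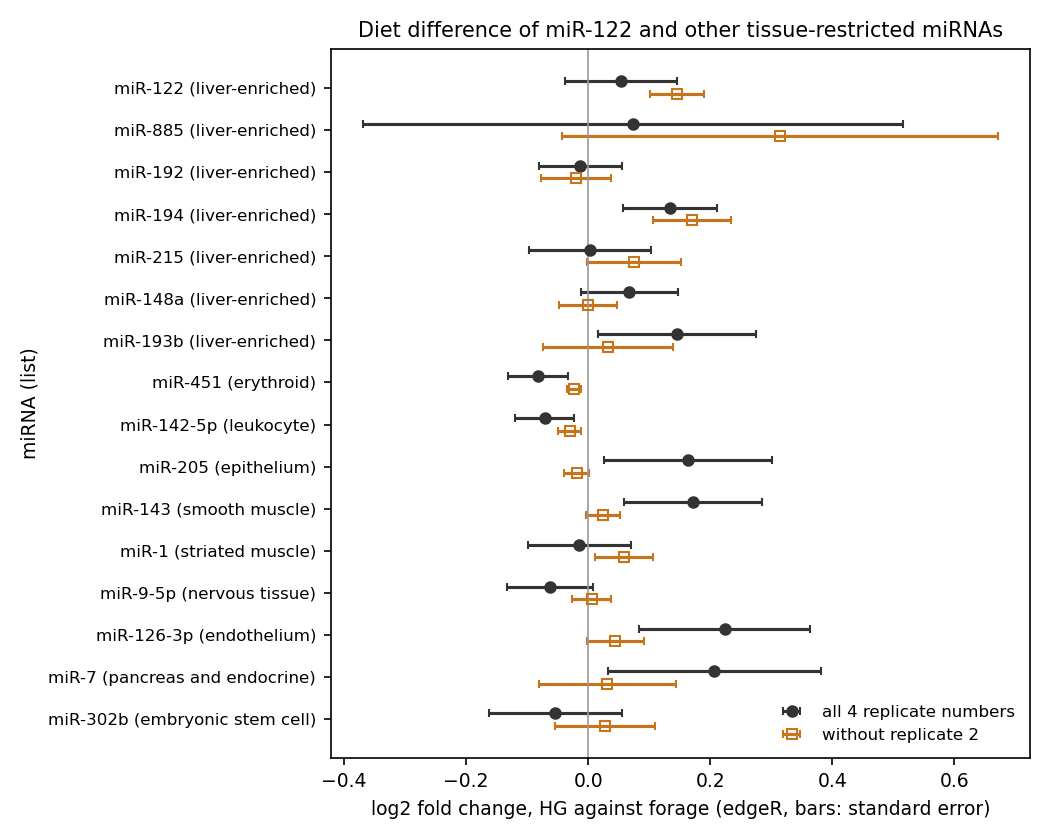
Log2 fold change (HG against forage, edgeR, bars the standard error) of bta-miR-122, the other listed liver miRNAs and the most abundant member of each other list, with all 4 replicate numbers (filled) and without replicate 2 (open). Bta-miR-122 moves from 0.05 to 0.15 when replicate 2 is left out, whereas bta-miR-205, bta-miR-143 and bta-miR-126-3p move towards 0.

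HG replicate 2 was set against the median of the other 7 libraries. Bta-miR-122 held 1562 RPM in it and a median of 2423 RPM in the others, a log2 ratio of −0.63. Over the 361 entries for which a ratio could be formed, the median log2 ratio was −0.23 and 236 were lower in HG replicate 2. Of the other liver miRNAs, bta-miR-885 and bta-miR-215 had log2 ratios of −1.45 and −0.68, bta-miR-192 and bta-miR-194 of −0.27 and −0.10, and bta-miR-148a and bta-miR-193b of 0.08 and 0.40. The liver list did not go one way in this library.

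Other tissue-restricted miRNAs lay on 1 side in some lists and on both sides in others. All 4 nervous tissue members with a ratio were lower in HG replicate 2, with log2 ratios of −0.62 to −0.32, though bta-miR-124a and bta-miR-124b hold the same reads. In contrast to them, bta-miR-137, which had no median to form a ratio, held 110 RPM in it and at most 4.39 RPM elsewhere. The 4 embryonic stem cell members (−0.51 to −0.07) and the 3 erythroid members (−0.49 to −0.37) were lower as well. So were 3 of 4 pancreas and endocrine members, 3 of 4 leukocyte members and 2 of 3 striated muscle members. Over all entries 236 of 361 were lower, so these counts of 3 of 4 and 2 of 3 lay near that share. On the other side, 6 of 7 epithelial members were higher, with a median log2 ratio of 0.53, and so were both smooth muscle members (0.44 and 0.89) and both endothelial members (0.56 and 0.63). Beside the median of −0.23 over all entries, bta-miR-122 at −0.63 lay below it, as did all nervous tissue members with a ratio and all erythroid members, whereas the stem cell list had a median of −0.21, close to that of all entries. The summed level of the epithelium list was 31200 RPM in HG replicate 2 and 22054 to 22803 RPM in the other libraries. That of the nervous tissue list, which counts the reads of bta-miR-124a and bta-miR-124b at both entries, was 7788 RPM and 10352 to 11595 RPM. As shares of 1 total, the levels cannot all move the same way, and the part of these sums in the level of bta-miR-122 was not tested.

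**Figure D4:**
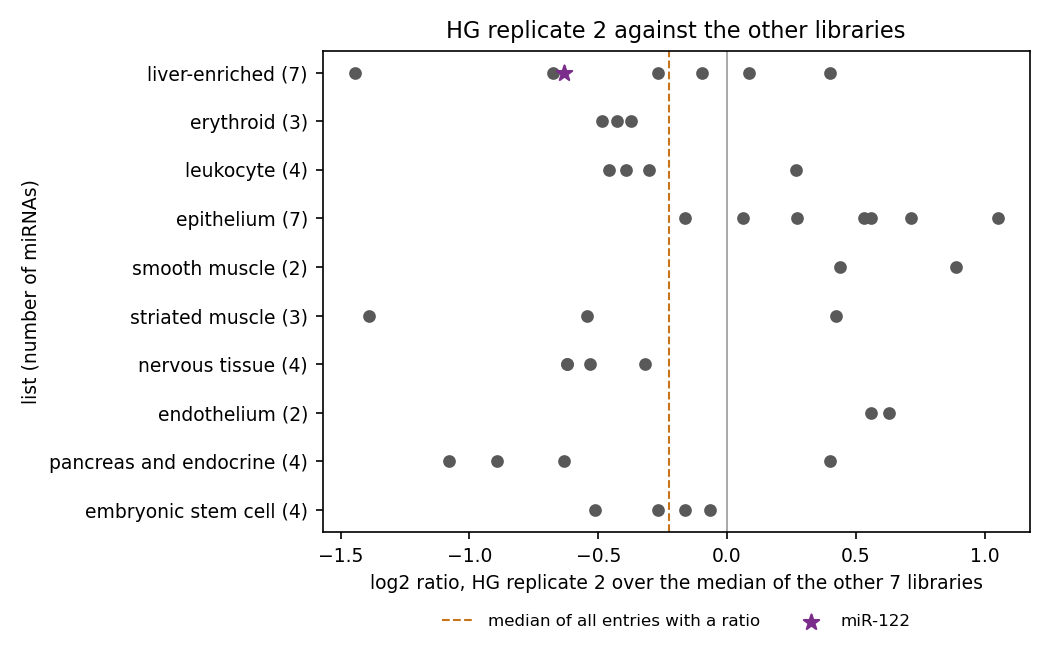
Log2 ratio of the level in HG replicate 2 to the median level of the other 7 libraries, for each member of the tissue-restricted lists with a ratio (points), with bta-miR-122 as a star and the median of 361 entries as a dashed line at −0.23. Epithelial, smooth muscle and endothelial members lie mostly to the right of 0, and bta-miR-122 at −0.63 lies to the left with the nervous tissue and erythroid members.

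Ratios of reads within a library do not depend on the total. For every 100 reads of bta-miR-451 the forage libraries held 1.22 to 1.43 reads of bta-miR-122, the HG libraries other than replicate 2 held 1.49 to 1.61, and HG replicate 2 held 1.24. For every 100 reads of bta-miR-9-5p these values were 34.2 to 40.3, 38.4 to 44.3 and 37.6. For every 100 reads of bta-miR-1 they were 32.8 to 39.4, 35.4 to 39.6 and 34.2. Against these 3 miRNAs and against bta-miR-302b, HG replicate 2 lay within the range of the other libraries. Against bta-miR-142-5p of leukocytes it lay just below, at 18.4 per 100 reads with 19.0 to 23.9 in the others. Against bta-miR-7, of neurons and endocrine cells, it lay below, at 166 per 100 reads with 286 to 404 in the others. The rest of that list did not go with bta-miR-7, whose log2 ratio in HG replicate 2 was 0.40. Bta-miR-375, bta-miR-216b and bta-miR-217 had −0.63, −0.89 and −1.08, beside −0.63 for bta-miR-122. Against bta-miR-205, bta-miR-143 and bta-miR-126-3p HG replicate 2 lay well below, at 11.2, 1.94 and 23.8 reads per 100. The other libraries held 21.8 to 29.4, 3.50 to 4.49 and 47.2 to 60.3. Set against bta-miR-451, bta-miR-142-5p and bta-miR-205, the HG libraries other than replicate 2 were above all forage libraries, whereas against bta-miR-9-5p, bta-miR-1, bta-miR-143 and bta-miR-126-3p the diets overlapped also without HG replicate 2.

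**Figure D5:**
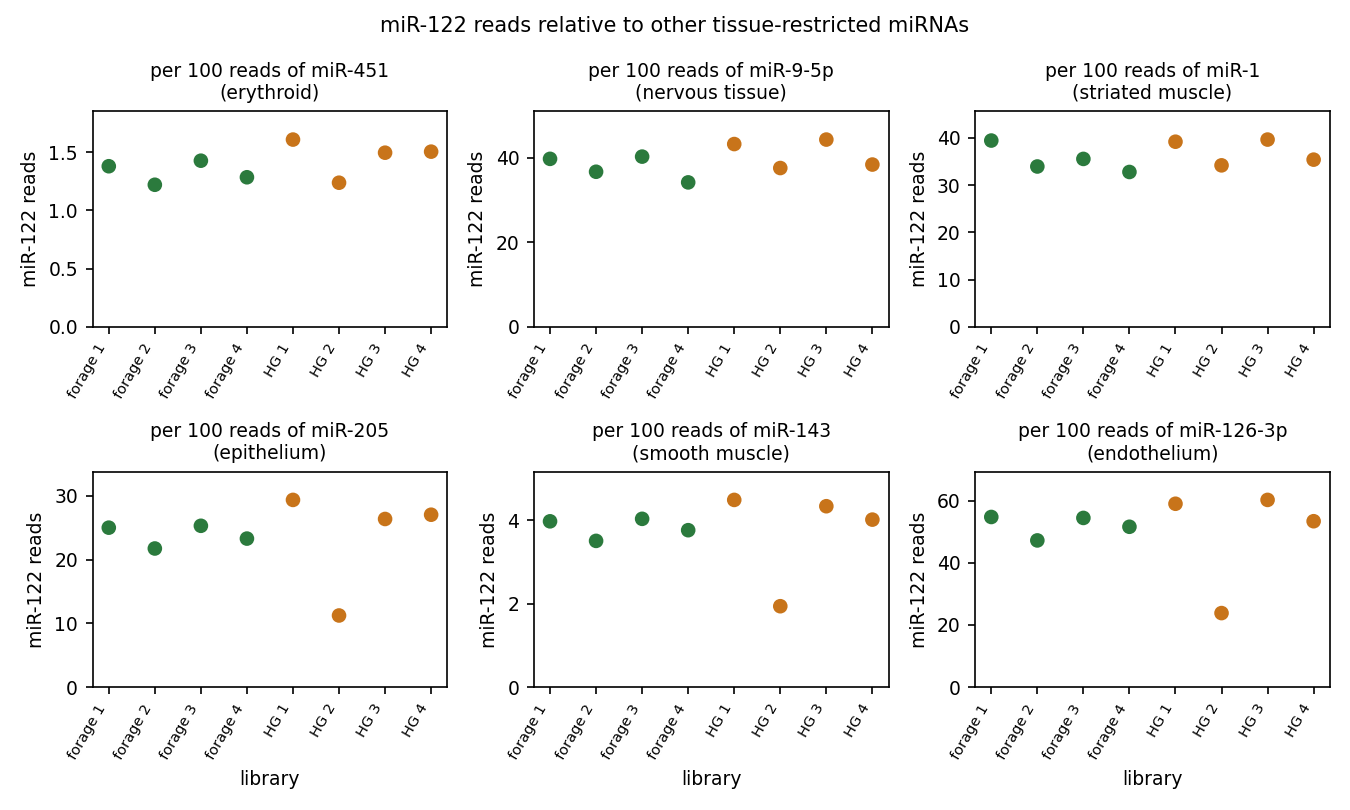
Reads of bta-miR-122 for every 100 reads of 6 other tissue-restricted miRNAs in each library, with forage in green and HG in orange. HG replicate 2 lies among the other libraries for bta-miR-451, bta-miR-9-5p and bta-miR-1 (1.24, 37.6 and 34.2) and far below them for bta-miR-205, bta-miR-143 and bta-miR-126-3p (11.2, 1.94 and 23.8).

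The entries whose level went most closely with that of bta-miR-122 were sought among the other 197 bovine entries with at least 10 reads in every library, by the Pearson correlation of log2 RPM over the 8 libraries, given as a description. They were bta-miR-2285bc (0.92), a bovine miRNA of the large miR-2285 family, bta-miR-379 (0.92) of the imprinted DLK1-DIO3 cluster, bta-miR-652 (0.91), bta-miR-30b-5p (0.91) and bta-miR-103 (0.90), a miRNA linked to insulin signalling. Over the 197 entries the median correlation was 0.49, with 123 above 0, and without HG replicate 2 it was 0.07, so a positive correlation over the 8 libraries was common. Each of the 5 had its lowest level in HG replicate 2, as bta-miR-122 did. Bta-miR-2285bc, for example, held 1113 RPM there and 1630 to 1768 RPM in the other libraries. Without HG replicate 2 the correlations of these 5 were 0.37 to 0.71, and 0 of them were among the 5 highest. Those were then bta-miR-30a-5p (0.87), bta-miR-23b-3p (0.81), bta-miR-26a (0.81), bta-miR-361 (0.79) and bta-miR-6123 (0.75), named after their values were seen. Bta-miR-30a-5p and bta-miR-23b-3p had correlations of −0.76 and −0.75 over all 8 libraries, whereas bta-miR-26a, bta-miR-361 and bta-miR-6123 had 0.84, 0.87 and 0.87. The sign thus turned with HG replicate 2 for 2 of these 5 entries. None of these 10 entries belongs to the liver list.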

How the data were processed

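Small RNA libraries of rumen fluid (4 forage, 4 HG) were demultiplexed by the authors with bcl2fastq 2.20, trimmed with Skewer, filtered for quality and length and assigned to miRNAs with sRNAbench and Bowtie, against UMD3.1 and bovine and human miRBase entries. For each library the authors deposited read counts per entry, with a read counted in full at every entry it maps to, and expected counts, with such a read divided among its entries. The deposited RPM of all reads gave the total reads of the library, and the deposited score scaled to miRNA reads gave the miRNA reads. The authors also deposited a normalized signal. Multiplied by 1 divisor per library, it returned the expected count within rounding for 377 of 377 entries in each library. The lowest listed count was 2 reads, so an entry that is not listed is not shown to be absent.

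Entries that reached 10 reads in any library were tested with edgeR 4.0.16 (R 4.3.3; TMM, glmQLFit and glmQLFTest, two-sided, Benjamini-Hochberg) on a model of cow and diet taken from the study's methods. DESeq2 1.42.0 was an alternative, as were another normalization, no filter, the expected counts, no cow term and leaving out replicates. The test was checked on simulated data. Other steps used Python 3.11.15, numpy 2.4.6, pandas 2.3.3 and scipy 1.17.1. Pairing of libraries rests on the labels' numbers and on the design, in which the same cows were sampled on both diets. Within the pairs, deviations from the diet means had correlations over 198 entries of 0.00, −0.15, 0.10 and −0.04, and those of other pairs at −0.28 to 0.23, which does not show the pairing. P-values of the diet test measure the spread between these samples that is left after the cow term, moderated over the entries. The chi-square comparison of libraries takes in the sampling of reads alone.

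The miRNA, the lists and the tests were chosen with earlier results of these data known. Named were bta-miR-122, all listed liver miRNAs, the most abundant member of each other list, the 2 entries above and below bta-miR-122 in rank and the 5 entries most like it. The lists hold miRNAs in general use as markers, and several of the tissues they mark are also present in the rumen wall. Their members listed here were 7 of 8 for liver, 3 of 3 erythroid, 4 of 4 leukocyte, 5 of 7 striated muscle, 7 of 8 epithelium, 6 of 6 nervous tissue, 2 of 2 smooth muscle, 2 of 2 endothelium, 4 of 5 pancreas and endocrine, and 5 of 5 embryonic stem cell.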

Additional observations from a re-analysis of the deposited data

Results flagged for a closer look

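The level in RPM of miRNA reads of 24 named miRNAs, and 2 further measures of bta-miR-122, were examined within each diet for a library far from the other 3 by Dixon's criterion, which chance meets in about 1 of 20 groups. Of 52 groups, 6 met it, all of them on the HG diet and all through HG replicate 2. Bta-miR-122 held 1562 RPM in that library and 2526 to 2662 RPM in the other HG libraries. Bta-miR-885, with 136 reads in all, held 17.8 RPM there against 48.6 to 54.1 RPM, and 18.2 RPM in forage replicate 1. Bta-miR-451 held 126252 RPM in HG replicate 2 against 165599 to 168957 RPM. Bta-miR-142-5p held 8481 RPM against 11088 to 11142 RPM, and bta-miR-30b-5p 2029 RPM against 2638 to 2742 RPM. Bta-miR-205 lay on the other side, with 13898 RPM against 9060 to 9571 RPM. That HG replicate 2 stood apart was known when bta-miR-122 and this criterion were chosen, so its value restates that and is no separate evidence. These miRNAs are shares of the same library and are not independent of each other.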

How the results depend on the processing

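The number of entries called for the diet was 0 in 9 of 10 alternatives and 0 to 2 when 1 replicate number was left out, with 2 without replicate 2. The log2 fold change of bta-miR-122 was 0.03 to 0.04 with other normalizations, tools, filters and counts. It was 0.07, with 0 entries called, without the replicate block, and −0.01 to 0.15 when 1 replicate number was left out, negative only without replicate 4. The list median stayed between −0.01 and 0.01 in all 10 alternatives. The forage and HG means of 2270 and 2320 RPM became 401 and 328 RPM of library reads, and 2855 and 2930 RPM of the divided reads of the listed entries, since the denominators differ. Leaving out 1 library gave 2219 to 2322 RPM for forage and 2206 to 2573 RPM for HG, with the highest HG mean without HG replicate 2. Counting libraries that agree within sampling noise once, as 2 forage and 3 HG samples, gave 2218 and 2229 RPM. By divided reads bta-miR-122 ranked 46 among bovine entries in place of 59, and 12 among the tissue-restricted miRNAs in place of 16. Other entries lose shared reads, some of them to human entries of like name. Bta-miR-451 and hsa-miR-451a, for example, had the same log2 fold change and standard error. With 525 to 1166 reads per library, counting error of bta-miR-122 was 63.6 to 94.2 RPM (SD).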
